A study of Mus musculus with 8 samples.

Results

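The ATP-dependent chromatin remodeller subunits are 40 mouse genes: 26 subunits of the SWI/SNF (BAF) complexes and 14 ATPases of the CHD, ISWI and INO80 families. The genes were selected by symbol in the deposited table of RNA-Seq counts, which held 20701 gene symbols, and a symbol listed with several transcripts was represented by the one with the most counts on average. All 40 were listed, and 38 of them were among the 13769 genes that passed the filter on low counts. RNA-Seq of polyadenylated RNA was performed on the outflow tract and right ventricle (OFT/RV) dissected from single C57BL/6 embryos at E10.5. The control group (CTRL) comprised 4 wild type embryos. The other group (Isl1_hypo) comprised 4 Isl1 hypomorph embryos, named f;neo/f;neo in the study, which keep reduced expression of Isl1, the LIM-homeodomain factor of second heart field progenitors. All embryos were of the same stage, and the libraries of both groups were made from 100 ng of total RNA and sequenced on the same type of instrument.

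Chromatin remodellers are molecular motors that use ATP to slide, evict or exchange nucleosomes, and thereby set which DNA is open to transcription factors. SWI/SNF complexes are built around either of the motors Brg1 (Smarca4) or Brm (Smarca2) with a shared core, and exist as BAF, PBAF and non-canonical BAF (ncBAF), each marked by its own subunits. CHD motors read histone tails through chromodomains, ISWI motors space nucleosomes, and motors of the INO80 family exchange histone variants. In heart development Brg1 and Baf60c (Smarcd3) are known for their role in the cardiac gene programme, and the study examined Smarcd3 both as a downstream target and as a partner of Isl1.

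The depth of the CTRL libraries was 29748455 to 46678970 counts, that of the Isl1_hypo libraries 18422250 to 33050295. Isl1 itself (chr13:117088478-117099896, mm9) had between 29.6 and 61.5 CPM (counts scaled to a common library size by the TMM method) in CTRL and between 6.86 and 12.7 in Isl1_hypo, so that every library matched its label (log2 fold change -2.29, SE 0.256, adjusted p = 0.0077 with edgeR). Markers of heart muscle were abundant in all 8 libraries, with a summed level of 28500 to 34479 CPM in CTRL and 30602 to 36341 CPM in Isl1_hypo, and the 3 neural crest markers were below 1 CPM in every library. The heart muscle sum was mostly Actc1 (mean of 21021 CPM in CTRL and 23655 CPM in Isl1_hypo). Of the 7 heart muscle markers, 3 had a lower and 4 a higher level. Myh7 was lower in every Isl1_hypo embryo than in any CTRL embryo (log2 fold change -0.49, adjusted p = 0.165 with edgeR). The summed level of the 6 red cell markers was higher in Isl1_hypo (8550 to 17788 CPM) than in CTRL (1525 to 8415 CPM), that of the 4 endothelial markers was lower (338 to 451 against 478 to 546 CPM) and that of the 4 epithelial markers higher (124.04 to 258 against 67.9 to 115 CPM). The epithelial sum was made up mostly of Krt8 and Krt18, whereas the defining markers Cdh1 and Epcam had 15.3 and 9.83 CPM in Isl1_hypo library 1 and at most 0.311 and 1.87 CPM in any other library of either group, with no count of Cdh1 in Isl1_hypo libraries 2 and 3. Sums of mesenchymal, neuronal and macrophage markers overlapped between the groups, and the part of these cells in the values of the remodellers was not tested. In bulk tissue, fewer cells of a type and less RNA per cell cannot be told apart. Library 3 of Isl1_hypo stood apart from the others. Its log2 CPM, taken relative to each gene's mean over the 8 libraries, fell by 0.30 for each 10 percentage points of transcript GC content, whereas the slope of the other 7 libraries lay between -0.04 and 0.11. Remodeller genes also scattered most in this library, where the interquartile range of their deviations from the CTRL mean was 0.723 on the log2 scale, against 0.131 to 0.376 in the other libraries. Leaving it out moved the log2 fold change of 16 of the 38 tested members by more than 1.5 times and turned the sign of 6 others, all 6 with values between -0.09 and 0.03 with all libraries.

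The change of the remodeller genes was small. Of the 38 genes tested, 27 had a lower and 11 a higher level in Isl1_hypo, with a median log2 fold change of -0.07 and a range from -0.58 (Srcap) to 0.54 (Smarcd2). Among all genes tested, 49.1% had a negative log2 fold change and the median was 0.01. No remodeller gene passed an adjusted p of 0.05 in the quasi-likelihood test of edgeR, in which 0.269% of all genes passed, and the lowest adjusted p of a member was 0.188 (Chd4). An unadjusted p under 0.05 was reached by 8 of the 38 genes: 7 lower ones (Smarca4, Smarcc2, Smarcd1, Arid1a, Chd3, Chd4 and Chd6), where the share among all genes was 6.17%, and 1 higher one (Smarcd2), where it was 5.69%. In 4 genes, Smarca4, Smarcc2, Chd4 and Srcap, every Isl1_hypo embryo lay below every CTRL embryo, a pattern found in 4.44% of all genes. None lay entirely above, against 4.06% of all genes. With DESeq2, which called 2.32% of all genes, 2 members passed: Chd4 with an adjusted p of 0.0268 and Smarca4 with an adjusted p of 0.0303. Without Isl1_hypo library 3, 29 of the 38 genes were lower, against 49.4% of all genes in that fit, and 6 of these (Smarca4, Smarcd1, Arid1a, Brd7, Chd4 and Srcap) had an unadjusted p under 0.05, against 5.92% of all genes. Smarcc2, Chd3, Chd6 and Smarcd2 no longer had one in that fit, and no member passed the adjusted threshold. With the mean log2 CPM of the globin genes as a covariate, 23 of the 38 genes were lower, against 49.5% of all genes, and none had an unadjusted p under 0.05, against 3.66% of all genes. This covariate moves with the groups, and in that fit no gene passed, not even Isl1 (adjusted p = 0.507 with edgeR). Once each library was corrected for its trend on length, 6 members had an unadjusted p under 0.05, against 12.2% of all genes. Of these, 4 were lower (Smarca4, Smarcc2, Smarcd1 and Chd4), against 5.93% of all genes, and the rest, with Smarcd2 among them, were higher. Arid1a, Chd3 and Chd6 had none in that fit. With the trend on GC content removed 6 members had one, against 11.6% of all genes. Of these 5 were lower, against 6.3% of all genes, and Smarcd2 was higher. In limma-voom with sample quality weights 5 members had one, all lower, against 6.94% of all genes.

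**Figure D1:**
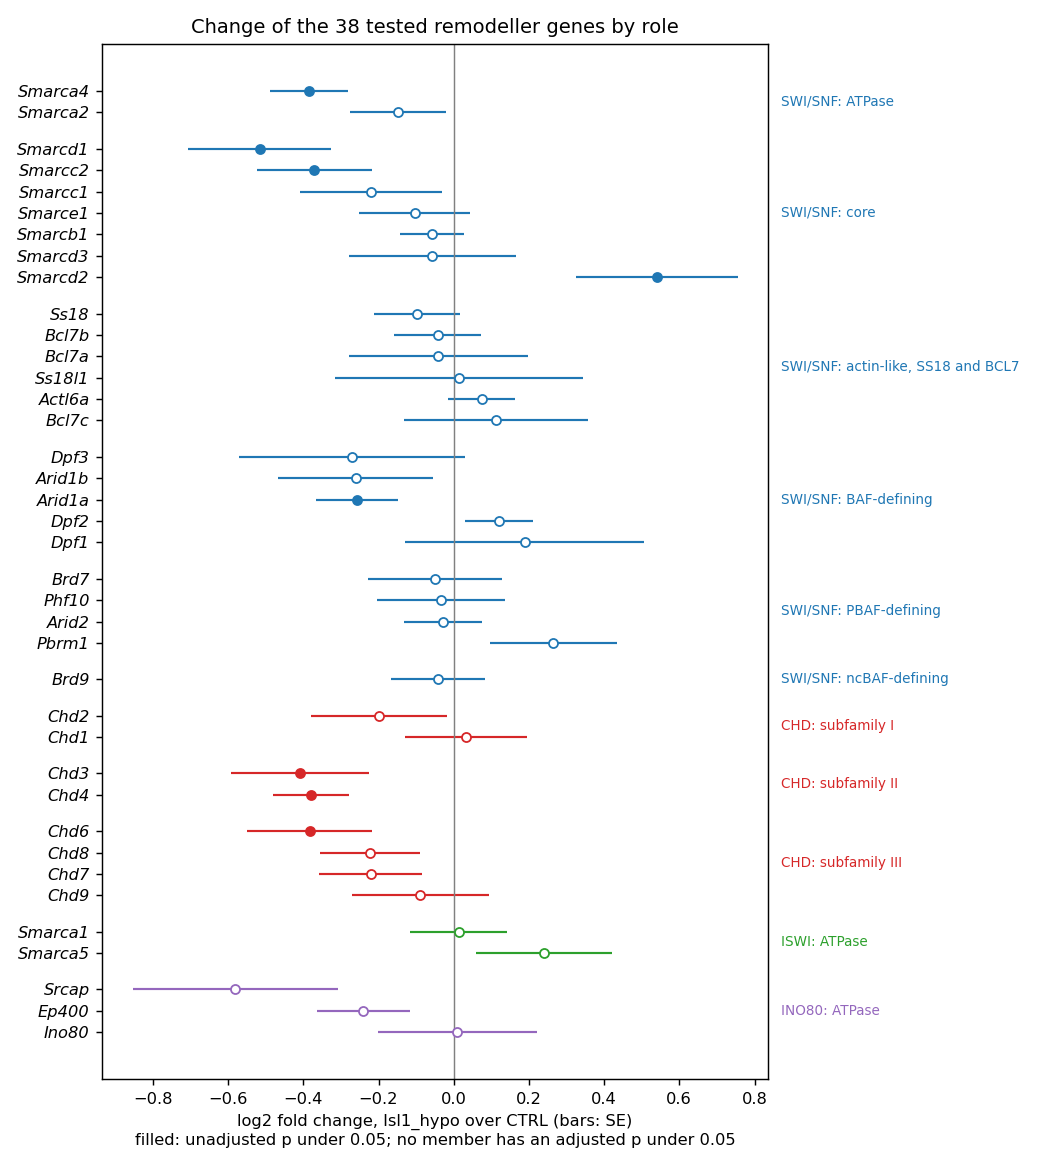
Log2 fold change (Isl1_hypo over CTRL, horizontal axis) of the 38 tested remodeller genes, grouped by family and role, with bars for the SE and filled points for an unadjusted p under 0.05. The points of 27 genes lie left of 0, and the 8 filled points are Smarca4, Smarcd1, Smarcc2, Smarcd2, Arid1a, Chd3, Chd4 and Chd6.

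Levels were compared between genes as CPM per kilobase of transcript. In CTRL the core subunit Smarcb1 was the most abundant member (120 ± 3.40 CPM per kb, SD, n = 4), followed by the actin-related subunit Actl6a (97.6 ± 4.66) and the motors Smarca4 (46.6 ± 2.18) and Chd4 (42.2 ± 2.04), and each of these steps was larger than the spread between embryos. The counting ignored strand, and 22.7% of the Actl6a transcript overlaps exons of Mrpl47 (mean of 50.6 CPM in CTRL) on the opposite strand. Phf10 overlaps 1600012H06Rik in the same way over 26.45% of its transcript. Dpf2 (32.5 ± 0.484), a BAF reader of histone acylation, and Ss18 (32.0 ± 4.65), a subunit of BAF and ncBAF, did not differ beyond their spread, nor did any neighbours among the 7 genes from Brd7 (22.6 ± 2.18) to Arid1a (18.8 ± 1.84). Smarca2, the other SWI/SNF motor, stood at 5.49 ± 0.445 CPM per kb. Among the remaining motors, Smarca1 (10.9 ± 1.10) and Srcap (10.9 ± 1.14) led, Smarca5 reached 8.21 ± 0.508 and Chd7 8.20 ± 0.978, and the tested motors Chd9 (2.30 ± 0.271) and Ino80 (2.07 ± 0.583) were low and within their spread of each other. At the low end were Dpf3 (1.83 ± 0.427) and Dpf1 (1.35 ± 0.261). The neuronal members Actl6b and Chd5 were not tested, with no more than 1 count of Actl6b and 8 counts of Chd5 in any library. In Isl1_hypo Smarcb1 (115 ± 4.52) and Actl6a (103 ± 4.79) again led, whereas Smarca4 (35.7 ± 3.94), Dpf2 (35.4 ± 2.33) and Chd4 (32.4 ± 3.36) lay within their spread of each other.

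**Figure D2:**
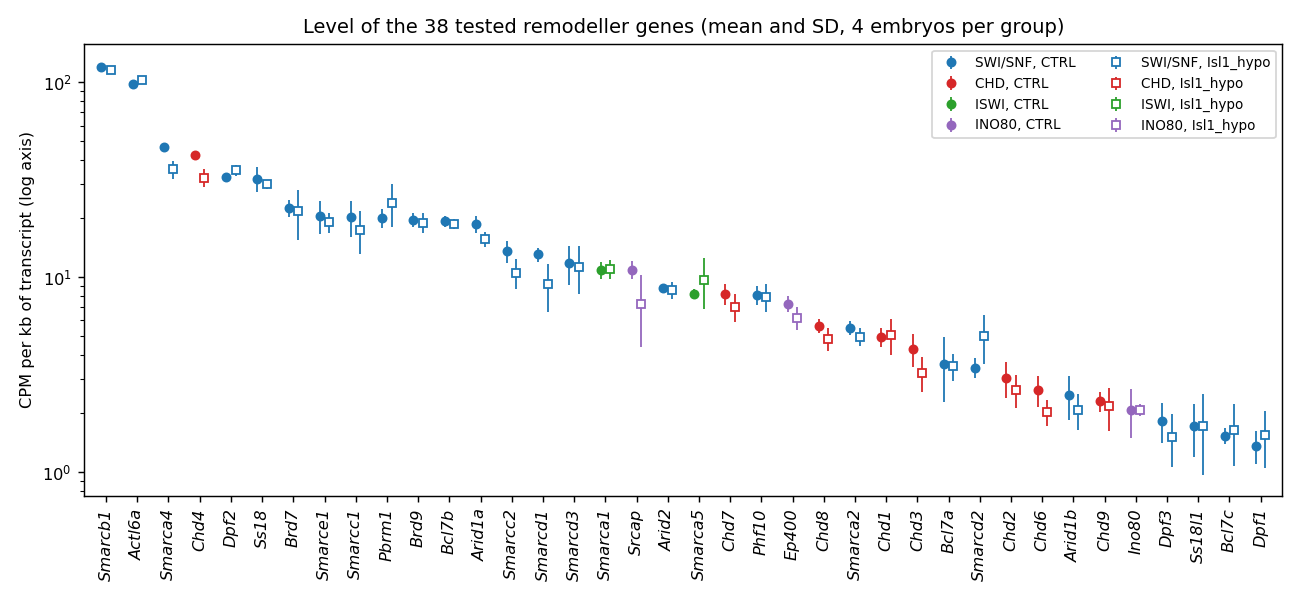
Level of the 38 tested members in CPM per kb of transcript (vertical log axis) in CTRL (filled circles) and Isl1_hypo (open squares), as mean with SD over 4 embryos, ordered by the CTRL level and coloured by family. Smarcb1 and Actl6a lie at 120 and 97.6 CPM per kb in CTRL and Dpf1 at 1.35, and most pairs of points overlap in their SD.

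Promoter sequences were taken from RefSeq (GRCm38.p6), where 32 of the 40 members have an entry, and cover the 250 bases before the transcription start. They are shown for Smarca4 and Chd4, the motors with the lowest p among the members, and for Smarcd1 and Smarcd2, paralogues whose log2 fold changes had opposite signs. Capitals mark TAAT, the core of many homeodomain binding sites, on either strand (ATTA on the strand shown for the other orientation). These letters were in 54.9% of all 32851 promoters in the table and in 9 of the 37 entries of the members (24.3%). The member promoters were rich in G and C, with a median of 67.6% against 52.4% over all promoters, and held a median of 22.0 CG dinucleotides against 6.00.
The entry of Smarca4 lies at chr9:21615919-21616168 on the plus strand, has 25 CG dinucleotides and holds no TAAT.
Smarca4: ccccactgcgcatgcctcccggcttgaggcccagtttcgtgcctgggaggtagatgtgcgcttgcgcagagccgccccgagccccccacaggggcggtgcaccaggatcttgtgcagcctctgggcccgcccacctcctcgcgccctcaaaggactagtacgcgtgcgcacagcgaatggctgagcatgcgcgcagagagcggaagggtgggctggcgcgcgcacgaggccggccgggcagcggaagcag
Chd4 has 2 overlapping entries, and the upstream one (chr6:125095731-125095980, plus strand) holds 3 matches and 12 CG dinucleotides.
Chd4: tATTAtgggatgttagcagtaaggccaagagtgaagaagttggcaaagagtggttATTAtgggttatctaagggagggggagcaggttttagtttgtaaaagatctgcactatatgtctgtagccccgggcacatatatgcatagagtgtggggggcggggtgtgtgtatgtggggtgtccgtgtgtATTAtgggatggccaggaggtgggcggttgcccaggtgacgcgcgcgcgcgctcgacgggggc
Smarcd1 (chr15:99702037-99702286, plus strand) holds no match and 29 CG dinucleotides.
Smarcd1: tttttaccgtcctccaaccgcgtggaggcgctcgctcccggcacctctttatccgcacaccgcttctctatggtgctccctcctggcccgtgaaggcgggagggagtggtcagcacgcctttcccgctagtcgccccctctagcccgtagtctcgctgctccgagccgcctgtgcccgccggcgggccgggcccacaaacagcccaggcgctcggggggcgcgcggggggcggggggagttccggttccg
Smarcd2 (chr11:106267633-106267882, minus strand) holds 1 match and 4 CG dinucleotides.
Smarcd2: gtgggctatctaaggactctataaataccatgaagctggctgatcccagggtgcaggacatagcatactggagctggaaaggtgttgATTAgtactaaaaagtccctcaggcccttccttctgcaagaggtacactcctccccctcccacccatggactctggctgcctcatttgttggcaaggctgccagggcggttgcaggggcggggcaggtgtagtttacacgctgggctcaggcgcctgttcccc
The promoters of the paralogues thus differ in composition, with 71.2% G and C in Smarcd1 and 56.4% in Smarcd2. A match of 4 letters is a description of the sequence and not a binding site.

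Among the SWI/SNF motors, Smarca4 (chr9:21420613-21508674, mm9) had 303, 311, 284 and 283 CPM in the CTRL embryos and 239, 237, 189 and 240 CPM in the Isl1_hypo embryos. All Isl1_hypo values were below all CTRL values, and library 3 was the lowest. The mean level in Isl1_hypo was 76.6% of that in CTRL (log2 fold change -0.38, SE 0.104, adjusted p = 0.195 with edgeR). Without Isl1_hypo library 3 the log2 fold change was -0.31 (adjusted p = 0.156 with edgeR), and with the globin covariate it was -0.22. Smarca2, the alternative motor, ranged from 30.1 to 35.5 CPM in CTRL and from 24.3 to 30.9 CPM in Isl1_hypo, with overlapping groups (log2 fold change -0.15, SE 0.128, and -0.16 without Isl1_hypo library 3). Its transcripts differed in sign. The long one of 5778 bases had a log2 fold change of -0.14 and the 2 short ones of 1951 bases had 0.14 and 0.13, each with an adjusted p over all transcripts above 0.05 in edgeR.

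The shared core is formed by Smarcb1, Smarce1, the scaffolds Smarcc1 and Smarcc2, and a Baf60 subunit chosen from Smarcd1, Smarcd2 and Smarcd3, which connect the complex to transcription factors. Of these 7 genes, 6 had a lower and 1 a higher level in Isl1_hypo, with a median log2 fold change of -0.10. Smarcc2 (Baf170) had 75.5, 62.0, 56.4 and 59.1 CPM in CTRL and 56.1, 53.3, 36.8 and 49.6 CPM in Isl1_hypo. The groups were just apart, the highest Isl1_hypo value lying next to the lowest CTRL value (log2 fold change -0.37, SE 0.152, adjusted p = 0.364 with edgeR). The value was -0.26 without Isl1_hypo library 3 and -0.10 with the globin covariate. Its paralogue Smarcc1 (Baf155) ranged from 96.2 to 149 CPM in CTRL and from 70.3 to 130 CPM in Isl1_hypo and overlapped widely (log2 fold change -0.22, and -0.09 without Isl1_hypo library 3). Smarcb1 had 193 to 205 CPM in CTRL and 180 to 198 CPM in Isl1_hypo (log2 fold change -0.06, SE 0.0856). Smarce1 had a log2 fold change of -0.10 (SE 0.148), and of -0.17 without that library.

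The 3 Baf60 subunits followed different patterns. Smarcd1 (Baf60a; chr15:99532718-99544426, mm9) had 43.2, 37.5, 39.1 and 44.7 CPM in CTRL and 29.7, 38.6, 18.9 and 27.8 CPM in Isl1_hypo. Only Isl1_hypo embryo 2 reached the CTRL range, and the mean was 69.96% of CTRL (log2 fold change -0.52, SE 0.189, adjusted p = 0.312 with edgeR). Smarcd2 (Baf60b; chr11:106124493-106134286) had 10.8, 8.22, 8.96 and 9.60 CPM in CTRL and 16.6, 9.89, 17.3 and 10.9 CPM in Isl1_hypo. Isl1_hypo embryos 1 and 3 were high, the other two lay close to the upper CTRL values, and the mean was 145% of CTRL (log2 fold change 0.54, SE 0.215, adjusted p = 0.346 with edgeR). Without Isl1_hypo library 3 the log2 fold changes of Smarcd1 and Smarcd2 were -0.36 and 0.40. Smarcd3 (Baf60c; chr5:24096636-24107830), the subunit enriched in heart and muscle, had 18.8, 21.2, 14.9 and 25.6 CPM in CTRL and 15.9, 13.8, 23.3 and 24.3 CPM in Isl1_hypo. The values of the groups interleaved, and the log2 fold change was -0.06 (SE 0.222, adjusted p = 0.943 with edgeR), so that no difference was detectable at this spread. The sign of this value turned when CTRL library 4 was left out (0.08), when Isl1_hypo library 1 or 2 was left out (0.02 and 0.07), and when each library's trend on GC content was removed (0.08). It was more negative without CTRL library 3 (-0.18), without Isl1_hypo library 3 (-0.16) or 4 (-0.19), in limma-voom with sample quality weights, which changes both the test and the weight of each library (-0.17), and once the globin level entered as a covariate (-0.39). The counting ignored strand, and 37.0% of the Smarcd3 transcript overlaps exons of Chpf2 on the opposite strand. Chpf2 had 38.9 to 44.3 CPM in CTRL and 11.6 to 32.7 CPM in Isl1_hypo (log2 fold change -0.71, adjusted p = 0.312 with edgeR), and reads of the 2 genes cannot be told apart in the shared stretch. By qPCR of OFT/RV at E10.5, the study reported a significant decrease of Smarcd3 in Isl1 hypomorphs. It also reported a decrease in Isl1 knockout embryos, shown by in situ hybridization. These assays differ from the counts used here, and the reason for the difference was not tested.

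**Figure D3:**
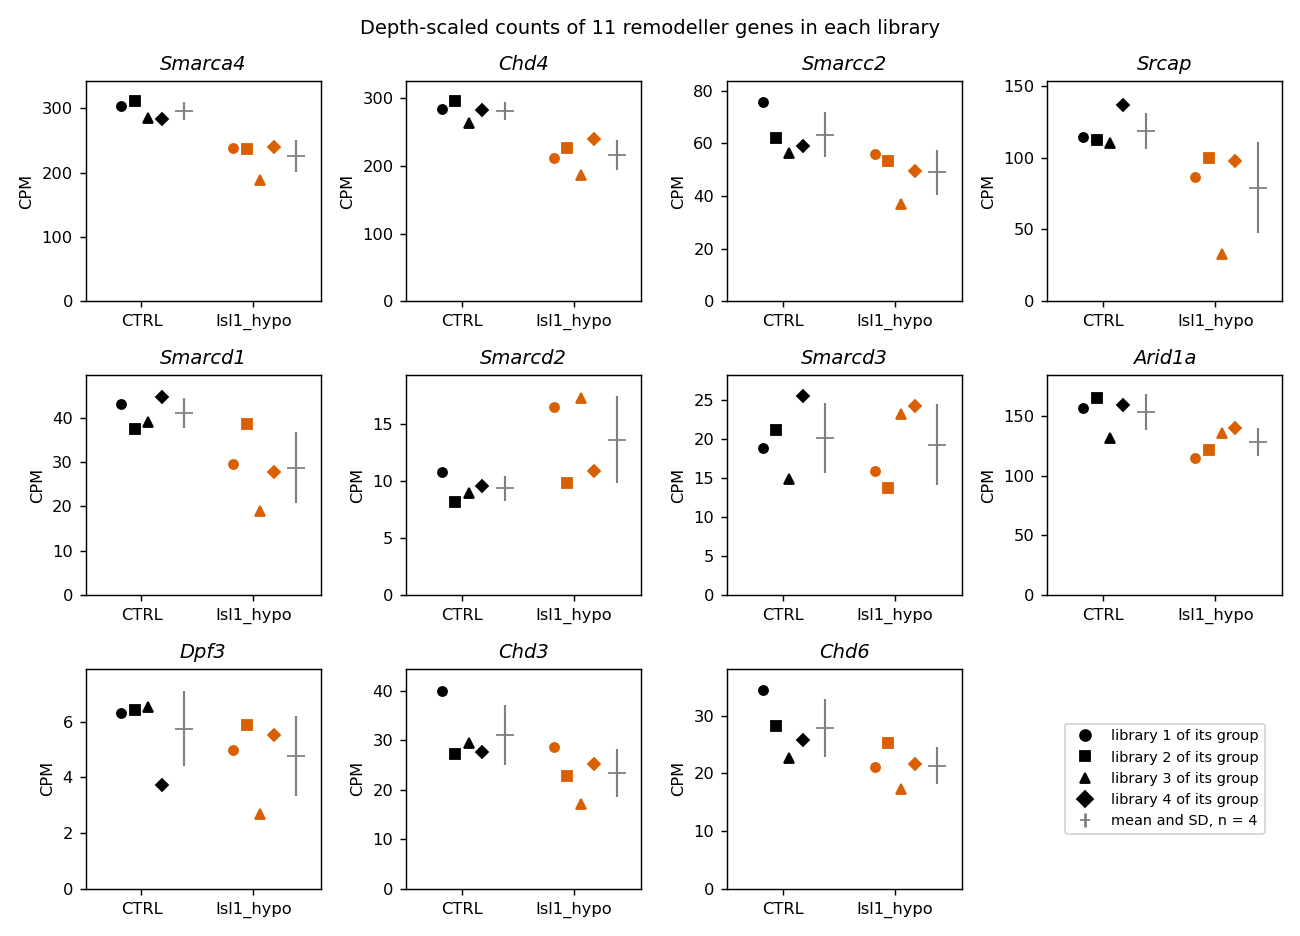
CPM (vertical axes from 0) of 11 remodeller genes in each of the 4 CTRL (black) and 4 Isl1_hypo (orange) libraries, with symbols for the library number and a grey bar for mean and SD. The groups do not overlap in Smarca4, Chd4, Smarcc2 and Srcap, and Isl1_hypo library 3 (triangle) is the lowest of its group in each of these.

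Of the subunits that define BAF, Arid1a (Baf250a), a DNA-binding subunit, had 156, 165, 131 and 159 CPM in CTRL and 115, 122, 136 and 140 CPM in Isl1_hypo. CTRL embryo 3 fell within the Isl1_hypo range, and the log2 fold change was -0.26 (SE 0.109, adjusted p = 0.382 with edgeR). It was -0.14 with the trend of each library on length removed and -0.16 with that on GC content removed. Its paralogue Arid1b had a log2 fold change of -0.26 (SE 0.206). The values were -0.29 for Arid1a and -0.12 for Arid1b without Isl1_hypo library 3, where Arid1b was low. Dpf3 (Baf45c), a histone reader of heart and muscle, had 6.30, 6.42, 6.53 and 3.74 CPM in CTRL and 4.997, 5.88, 2.69 and 5.50 CPM in Isl1_hypo. A single embryo of each group was low, and the groups overlapped (log2 fold change -0.27, SE 0.30, adjusted p = 0.752 with edgeR). This value was -0.07 without Isl1_hypo library 3, -0.43 without CTRL library 4, the low control, and 0.47 once the globin level entered as a covariate. Dpf2, the ubiquitous form, ranged from 107 to 110 CPM in CTRL and from 109 to 128 CPM in Isl1_hypo (log2 fold change 0.12), and the neuronal form Dpf1 lay between 2.58 and 5.21 CPM. Among the PBAF subunits, the bromodomain protein Pbrm1 (Baf180) had 167, 176, 137 and 169 CPM in CTRL and 136, 174, 247 and 223 CPM in Isl1_hypo. Isl1_hypo embryos 3 and 4 lay above every CTRL embryo, embryo 2 within the CTRL range and embryo 1 at its lower edge (log2 fold change 0.27, SE 0.169, adjusted p = 0.559 with edgeR, and 0.13 without Isl1_hypo library 3). Brd7, a bromodomain subunit, had 50.3 to 60.8 CPM in CTRL and 43.7, 45.0, 73.5 and 43.1 CPM in Isl1_hypo. Isl1_hypo embryo 3 was above and the other three were below every CTRL embryo, so that the log2 fold change was -0.05 (SE 0.178) with that library and -0.28 without it (adjusted p = 0.393 with edgeR). Arid2 (Baf200) had a log2 fold change of -0.03 (-0.08 without it), Phf10 -0.03, and Brd9, which marks ncBAF, -0.04 (SE 0.124, and -0.07 without it). The 6 tested actin-related, SS18 and BCL7 subunits lay between -0.10 (Ss18) and 0.11 (Bcl7c), 3 in each direction, and between -0.06 (Ss18) and 0.26 (Bcl7c) without Isl1_hypo library 3.

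Ratios of subunits within a library do not depend on how libraries are scaled, and 14 ratios of alternative subunits were compared as counts per kb. Smarcd2 over Smarcd1 was 0.286, 0.251, 0.263 and 0.246 in CTRL and 0.640, 0.294, 1.05 and 0.449 in Isl1_hypo. All Isl1_hypo values were higher, by 1.06 on the log2 scale on average, although Isl1_hypo embryo 2 was only just above CTRL (p = 0.0286, exact 2-sided permutation test, the smallest p that 4 against 4 allow, and 0.200 after Benjamini-Hochberg adjustment over the 14 ratios). The PBAF subunits Arid2 and Pbrm1 were summed and set over the sum of the BAF subunits Arid1a and Arid1b. This ratio was 1.31, 1.37, 1.40 and 1.36 in CTRL and 1.501, 1.72, 2.21 and 1.89 in Isl1_hypo. All 4 Isl1_hypo embryos again lay above all CTRL embryos, by 0.41 on the log2 scale (p = 0.0286, exact permutation test, adjusted 0.200). Without Isl1_hypo library 3 the differences were 0.75 and 0.32 on the log2 scale. With the trend of each library on GC content removed they were 1.07 and 0.24, and the exact permutation p was 0.0286 in all these cases. Leaving out any CTRL library gave p = 0.0571 in the exact permutation test for both, with differences of 1.03 to 1.11 and 0.395 to 0.429 that were close to those with all libraries. Every Isl1_hypo value still lay above every CTRL value in these cases, so that the higher p does not mean an overlap. The other 12 ratios overlapped between the groups. Among them, Smarca2 over Smarca4 differed by 0.24 (p = 0.143, exact permutation test), and by 0.14 without Isl1_hypo library 3. Smarcd3 over Smarcd1 differed by 0.48 (p = 0.371, exact permutation test), by 0.20 without Isl1_hypo library 3 and by 0.79 without Isl1_hypo library 2. Dpf3 over Dpf2 differed by -0.41 (p = 0.371, exact permutation test), by -0.12 without Isl1_hypo library 3 and by -0.60 without CTRL library 4. Phf10 over Dpf2, also a PBAF over a BAF subunit, differed by -0.16 (p = 0.429, exact permutation test). Its sign was opposite to that of the ratio of Arid2 and Pbrm1 to Arid1a and Arid1b. Arid1b over Arid1a had a geometric mean of 0.130 in both groups. It differed by 0.20 without Isl1_hypo library 3, by 0.14 without CTRL library 1 and by -0.10 without Isl1_hypo library 1. Without Isl1_hypo library 4 Smarca2 over Smarca4 differed by 0.35 (p = 0.0286, exact permutation test, not adjusted over the 14 ratios).

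**Figure D4:**
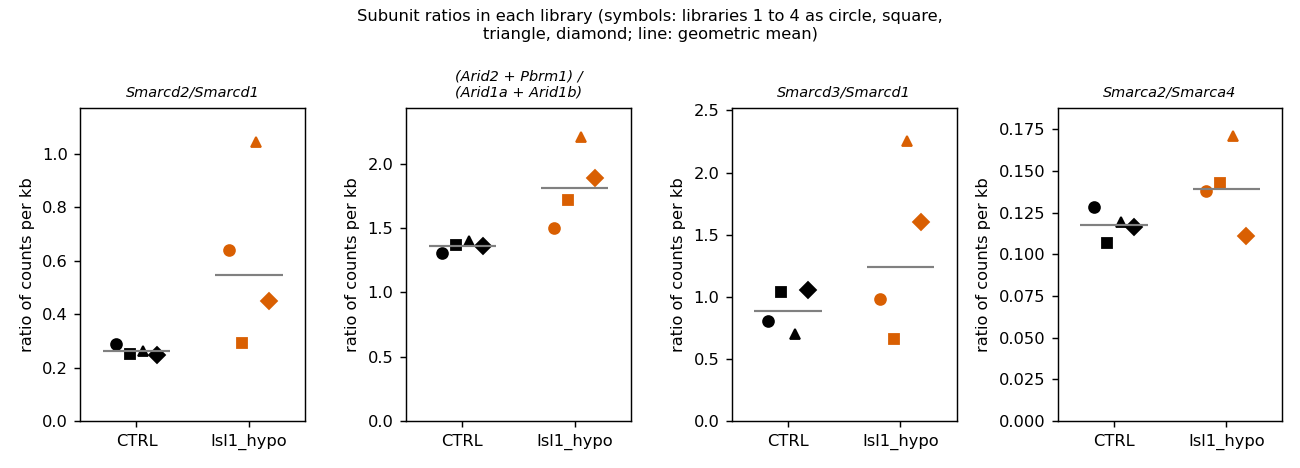
Ratio of counts per kb (vertical axes from 0) in each library for 4 subunit pairs, in CTRL (black) and Isl1_hypo (orange), with a grey line at the geometric mean. Smarcd2 over Smarcd1 lies higher in every Isl1_hypo library than in any CTRL library. The same holds for the sum of Arid2 and Pbrm1 over that of Arid1a and Arid1b, whereas Smarcd3 over Smarcd1 and Smarca2 over Smarca4 overlap.

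In the CHD family 7 of the 8 tested genes had a lower and 1 a higher level in Isl1_hypo (median log2 fold change -0.22). Chd4 (Mi-2 beta; chr6:125045999-125080609, mm9), the motor of the NuRD deacetylase complex, had 283, 295, 263 and 282 CPM in CTRL and 211, 226, 187 and 239 CPM in Isl1_hypo. All Isl1_hypo embryos lay below all CTRL embryos, at a mean of 76.8% of CTRL (log2 fold change -0.38, SE 0.102, adjusted p = 0.188 with edgeR). Without Isl1_hypo library 3 the log2 fold change was -0.32 (adjusted p = 0.177 with edgeR). Chd3, the other NuRD motor in this tissue, had 40.02, 27.2, 29.5 and 27.7 CPM in CTRL and 28.6, 22.9, 17.1 and 25.1 CPM in Isl1_hypo. Only Isl1_hypo embryo 1 reached the CTRL range (log2 fold change -0.41, SE 0.183, adjusted p = 0.412 with edgeR), and the Chd3 to Chd4 ratio differed by -0.03 on the log2 scale (p = 0.8286, exact permutation test), with either sign when single libraries were left out (-0.14 to 0.09). Chd6, a large motor of subfamily III, had 34.5, 28.3, 22.7 and 25.8 CPM in CTRL and 21.1, 25.3, 17.4 and 21.7 CPM in Isl1_hypo. The groups overlapped through Isl1_hypo embryo 2 (log2 fold change -0.38, SE 0.166, adjusted p = 0.396 with edgeR). Chd7, the gene mutated in CHARGE syndrome, which includes heart defects, and its relative Chd8 both had log2 fold changes of -0.22 (SE 0.136 and 0.133), and -0.22 and -0.13 without Isl1_hypo library 3. Chd9 had -0.09, Chd2 -0.20 and Chd1, which binds methylated histone H3, 0.03, and without that library Chd9 had 0.01, Chd2 -0.24 and Chd1 -0.04. The values of Chd3 and Chd6 were both -0.27 without CTRL library 1, -0.28 and -0.29 without Isl1_hypo library 3, and -0.11 and -0.09 with the globin covariate.

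Both ISWI motors had log2 fold changes above 0 with all libraries. Smarca1 (Snf2l) ranged from 37.6 to 47.9 CPM in CTRL and from 38.7 to 48.6 CPM in Isl1_hypo (log2 fold change 0.01, SE 0.129, and -0.03 without Isl1_hypo library 3). Smarca5 (Snf2h) ranged from 35.9 to 40.3 CPM in CTRL and had 33.2, 39.0, 62.9 and 43.6 CPM in Isl1_hypo (log2 fold change 0.24, SE 0.180). Isl1_hypo embryo 3 was high, and without it the log2 fold change was 0.03. Of the INO80 family, Srcap (chr7:134655541-134679890, mm9), the motor that deposits the histone variant H2A.Z, had 114, 112, 111 and 137 CPM in CTRL and 86.5, 99.8, 32.6 and 97.9 CPM in Isl1_hypo. All Isl1_hypo embryos were below all CTRL embryos, number 3 by far the most (log2 fold change -0.58, SE 0.273, adjusted p = 0.436 with edgeR). Without that library the log2 fold change of Srcap was -0.32 (adjusted p = 0.273 with edgeR). Ep400, the motor of the TIP60 complex, had a log2 fold change of -0.24 (SE 0.124, and -0.16 without that library), with 72.5 to 90.1 CPM in CTRL and 55.7 to 77.4 CPM in Isl1_hypo. Ino80 had a log2 fold change of 0.01 (SE 0.211), and of -0.03 without Isl1_hypo library 3.

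SWI/SNF subunits and the other remodellers differ in length, with a median transcript of 3.14 kb in the 25 tested SWI/SNF genes and 8.15 kb in the 13 tested CHD, ISWI and INO80 genes, against 2.93 kb over all genes. The median log2 fold change was -0.05 in the first set, where 18 of 25 genes were lower, and -0.22 in the second, where 9 of 13 were lower. The first median was -0.005 without CTRL library 1, -0.006 with the globin covariate and -0.08 without CTRL library 3. The second median was -0.14 in limma-voom with sample quality weights and -0.06 with the globin covariate. Length moved with the change in all genes, and CTRL library 1 and Isl1_hypo library 3 stood apart in it. Per doubling of length, log2 CPM relative to each gene's mean over the 8 libraries rose by 0.12 in the former and fell by 0.11 in the latter, against -0.03 to 0.03 in the other 6 libraries. Genes over 6 kb were lower in 63.5% of 1591 cases, with a median of -0.10, and genes up to 3 kb in 42.4% of 7092, with a median of 0.04. Among members, 13 of 17 genes over 6 kb were lower (median -0.22), 7 of 11 between 3 and 6 kb (median -0.10) and 7 of 10 up to 3 kb (median -0.04). Across genes, which share libraries and are not independent replicates, the log2 fold change correlated with log2 length at Pearson r = -0.38 (Spearman rho = -0.39) over the 38 members and r = -0.12 (rho = -0.17) over all genes. Over members r was -0.06 with the globin covariate and, over all 40 members, -0.15 without a filter on low counts. Over all genes r was -0.05 without CTRL library 1 and -0.07 without Isl1_hypo library 3. The difference of Isl1_hypo library 3 from the other 3 Isl1_hypo libraries correlated with log2 length at r = -0.30 over members and -0.11 over all genes, and the difference of those others from CTRL at r = -0.31 and -0.08. With the trend of each library on length removed, the median of the CHD, ISWI and INO80 genes was -0.07 and that of the SWI/SNF genes -0.09, so that the order of the medians turned, the correlation over members was -0.07, and 25 of 38 members were lower, against 50.2% of all genes. By library, the median deviation of the CHD, ISWI and INO80 genes from the CTRL mean was -0.25, -0.17, -0.42 and -0.18 in the Isl1_hypo embryos and that of SWI/SNF genes -0.17, -0.09, -0.05 and -0.03, whereas the CTRL embryos lay between -0.10 and 0.17 for the former and between -0.07 and 0.12 for SWI/SNF. Whether length or family goes with the lower values of these motors cannot be told apart here.

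**Figure D5:**
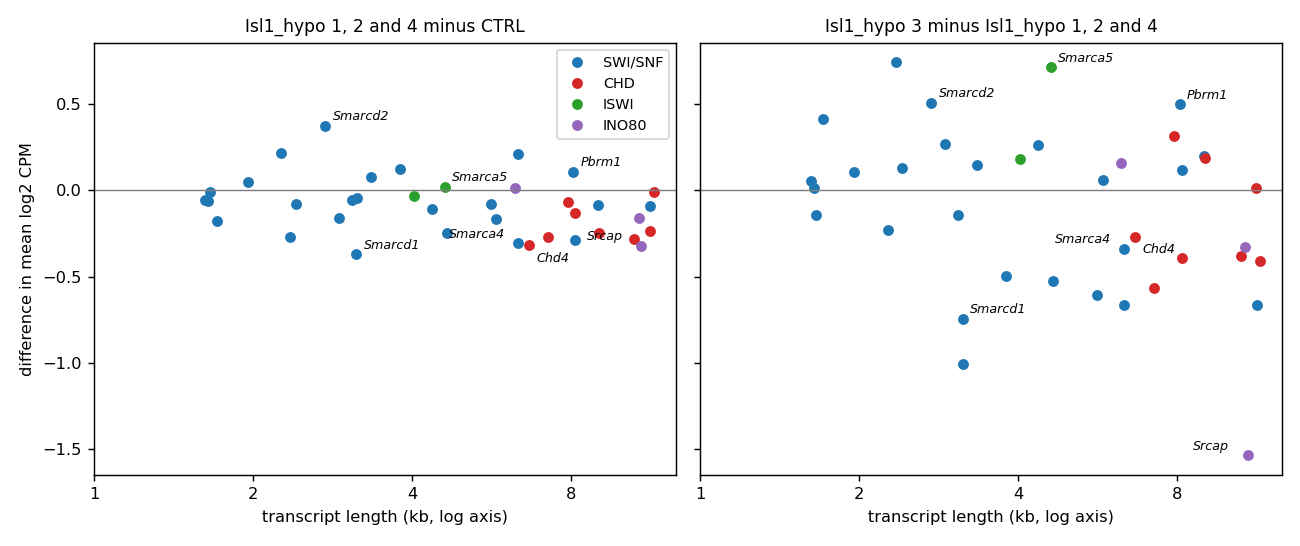
Difference in mean log2 CPM (vertical axes) against transcript length (horizontal log axes, kb) for the 38 tested members, coloured by family. Left, Isl1_hypo libraries 1, 2 and 4 minus CTRL, where the genes over 6 kb have a median of -0.16. Right, Isl1_hypo library 3 minus the other 3, where they have a median of -0.33 and Srcap lies lowest.

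Other genes of the same complexes were taken from a list of 58 partners (NuRD, ISWI, INO80, SRCAP and TIP60, ncBAF and further SNF2-type motors), of which 56 were in the table and were tested. Of these, 32 had a lower and 24 a higher level in Isl1_hypo (median -0.05), none passed an adjusted p of 0.05 in edgeR (lowest 0.287), and 5 lower and 3 higher genes had an unadjusted p under 0.05, against 6.17% and 5.69% of all genes. The partners of ISWI motors were lower in 7 of 9 cases (median -0.22, median length 7.94 kb). They included Baz2b, a partner of Smarca5, which was lower in every Isl1_hypo embryo than in any CTRL embryo (63.8 ± 5.19 CPM in CTRL and 51.5 ± 4.27 CPM in Isl1_hypo, SD, n = 4, log2 fold change -0.31), and Rsf1, which forms the RSF complex with the same motor (64.9 ± 4.16 and 51.9 ± 8.11 CPM, log2 fold change -0.32). In the other direction, Uchl5, a deubiquitinase bound to INO80, was higher in every Isl1_hypo embryo than in any CTRL embryo (89.4 ± 4.16 CPM in CTRL and 119 ± 24.9 CPM in Isl1_hypo, log2 fold change 0.42), and Rbbp7, a histone chaperone of NuRD, had 571 ± 71.5 and 701 ± 86.1 CPM (log2 fold change 0.30). The 11 NuRD partners of Chd4 had a median log2 fold change of -0.06, with 6 lower and 5 higher.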

How the data were processed

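RNA-Seq data of 8 libraries were used, 4 per group, grouped by the sample titles, each from a single embryo. The authors aligned reads with STAR to mm9 and counted exon reads per RefSeq transcript with HOMER on both strands, and the deposited values are whole, unnormalized counts, beside a deposited transcript length in bases. Reads of opposite-strand neighbours are therefore added together. The deposited table also holds RPKM values and the fold changes and p-values of the authors' own comparison, which were not used. Each of the 20701 symbols was represented by its transcript with the most counts on average. Counts were filtered with filterByExpr, scaled by TMM and tested by quasi-likelihood in edgeR 4.0.16 (R 4.3.3) without covariates, with Benjamini-Hochberg adjustment over 13769 genes. The SE is the size of the log2 fold change divided by the square root of F, the biological coefficient of variation was 26.4%, and a prior count of 2 was used for log2 CPM. Ratios had a prior count of 0.5 and were compared over the 70 assignments of 4 of 8 libraries. Alternatives included DESeq2 1.42.0 and limma 3.58.1 (voom with sample quality weights), other filters and scaling, the longest transcript, a replicate block, a globin covariate, a loess trend (span 0.5) on length, and each library left out. The GC trend and the length trend for ratios were added after seeing the data. Coordinates, GC content (87.1% of tested genes, 36 of 38 members) and exon overlaps are from GENCODE annotation of mm9. Same-numbered libraries did not deviate together (correlations of -0.02 to 0.02).

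The members and gene lists were chosen with earlier results of these data known. Full values are given for members with an unadjusted p under 0.05 or with no overlap between the groups, and for Smarca4, Smarcd3, Arid1a and Dpf3, which the study discusses, and Pbrm1, which the study also names, was added after its values were seen, as were single values of Brd7. Partners are named as the 2 with the lowest p in each direction, and members named otherwise are given by role.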

Additional observations from a re-analysis of the deposited data

Results flagged for a closer look

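Of 104 groups of 4 values of the members and their ratios, 15 held a library far from the other 3 by Dixon's criterion at the 95% level, where chance gives about 1 in 20 groups, or 5.2. Isl1_hypo library 3 was the one in 4 of them. It was low in Smarca4 (188.87 CPM, the others 237 to 240), in Arid1b (16.248 CPM, the others 25.2 to 26.6) and in Bcl7a (10.147 CPM, the others 14.01 to 14.5). It was high in the PBAF subunit Brd7 (73.494 CPM, the others 43.1 to 45.0).

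CTRL library 1 was high in 4 SWI/SNF genes. These were Smarce1 (77.035 CPM, the others 53.6 to 54.8), Ss18 (119.78 CPM, the others 89.6 to 93.6), Smarca2 (35.543 CPM, the others 30.1 to 30.9) and Brd7 (60.848 CPM, the others 50.3 to 51.2). In this library only 6 of the 38 members lay below the CTRL mean, against 19 to 30 in the other CTRL libraries.

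CTRL library 4 was high in Srcap (136.78 CPM, the others 111 to 114) and low in the heart and muscle reader Dpf3 (3.7405 CPM, the others 6.30 to 6.53), and with it the log2 ratio of Dpf3 to Dpf2 was low (-4.7621, the others -4.03 to -3.96). CTRL library 3 was high in Chd1 (45.371 CPM, the others 36.0 to 37.0) and low in the log2 ratio of Phf10 to Dpf2 (-2.2759, the others -1.93 to -1.91). In CTRL library 2 the log2 ratio of Smarca1 to Smarca5 was low (0.092952, the others 0.475 to 0.532), and in Isl1_hypo library 1 Dpf1 was high (5.2138 CPM, the others 2.74 to 3.08).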

How the results depend on the processing

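With all 8 libraries kept, 72 of the 84 recomputed values that answer a comparison stayed close to the main value, 2 no longer passed and 10 moved. For Isl1, close meant the same direction and side of the threshold. For counts it meant within 1.5 times, and for medians and correlations within the SD between the Isl1_hypo libraries. Of 117 values of single members and ratios, 113 kept their direction and side of the threshold, 2 passed (Smarca4 and Chd4 with DESeq2) and 2 turned in direction. DESeq2 called 2 members, against 2.32% of all genes. In limma-voom with sample quality weights (test and library weights changed together) no member was called, against 0.973% of all genes. The correlation of log2 fold change and log2 length over all genes was -0.044 in limma-voom. Without a filter the correlation was -0.15 over members and -0.037 over all genes. With the replicate number as a block, the log2 fold change of Isl1 was -2.287 (adjusted p = 0.0722 with edgeR), no gene passed, and 8 members had an unadjusted p under 0.05 (against 11.5% of all genes), with Srcap in place of Arid1a. With the globin covariate, no gene and not Isl1 passed (-2.301, adjusted p = 0.507 with edgeR), no member had an unadjusted p under 0.05, 23 members were lower, the median of the CHD, ISWI and INO80 genes was -0.056, the correlation was -0.060 over members and 0.018 over all genes, and Dpf3 turned to 0.47. The globin share of counts was 0.212% to 1.19% in CTRL and 1.18% to 2.44% in Isl1_hypo, so that this covariate moves with the groups. With the length trend removed, that median was -0.066 and the correlations -0.072 and -0.0017. With the GC trend removed, Smarcd3 turned to 0.0799.

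Leaving out 1 library at a time, the correlation over all genes ranged from -0.13 to -0.053 (without CTRL library 1), the median of all tested members from -0.14 to -0.034 (-0.14 without CTRL library 3 and -0.14 without CTRL library 4), Smarcd3 from -0.188 to 0.0804, and the number of ratios with an unadjusted exact permutation p under 0.05 from 0 (without any of the CTRL libraries) to 3. In these fits 24 to 29 members were lower (against 48.9% to 50.2% of all genes), 4 (without CTRL library 1 or 2) to 8 had an unadjusted p under 0.05 (against 9.26% to 13.8% of all genes) and none an adjusted p under 0.05 with edgeR. The cause of these changes was not tested. Actl6b and Chd5 had too few counts for a test, and 4 embryos per group limit the ratios to an exact permutation p of 0.0286.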
